A study of Mus musculus with 48 samples.

Results

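The p53 targets of cell cycle arrest and feedback described here are 9 genes, Cdkn1a, Mdm2, Ccng1, Btg2, Sesn1, Trp53inp1, Phlda3, Zmat3 and Plk2, chosen by name from the known targets of p53, out of 21887 protein-coding genes. For each gene, every ChIP-seq region within 1 kb of either gene end (mm10) was collected from all lists and tables in use. The study profiled mouse embryonic stem cells lacking the zinc finger proteins ZBTB11, ZFP131 or both, in 48 libraries that form 24 groups of 2 by target, genotype and culture. The double knockout line carries doxycycline-inducible Zbtb11-HA and Zfp131-V5 copies (iZbtb11-HA iZfp131-V5 Zbtb11KO Zfp131KO). The single lines carry 1 HA-tagged copy each (iZbtb11-HA Zbtb11KO and iZfp131-HA Zfp131KO), and the wildtype is the Ainv15(iCre) line. All groups other than HA were grown for 3 days without doxycycline in medium with LIF and without the 2i inhibitors. HA was profiled in the single lines with doxycycline and 2i. Each genotype is 1 line, so a knockout and a difference between lines cannot be told apart.

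Each list pools the libraries of a group, so a genotype has 1 value per region and no spread between replicates. The authors' deposited tables of Zbtb11KO or Zfp131KO against wildtype hold the only errors, and both knockouts are set against the same wildtype libraries. The labels do not say whether libraries came from separate cultures, and the p-values then reflect only how far these libraries vary, possibly for technical reasons. In such bulk libraries, fewer cells with a mark and less of it per cell cannot be told apart. The NELF lists rest on 51.1 M to 71.6 M reads, with 5.1% of reads in events in the double knockout, 9.8% in Zbtb11KO, 11.4% in Zfp131KO and 23.1% in wildtype, where the header names 1 replicate. The H3K4me3 lists hold 59.5 M reads in domains for the double knockout, from 28.3 M to 32.3 M for the single knockouts and 35.1 M for wildtype, with no library totals. In wildtype, 9 of 10 pluripotency genes carried H3K27ac at a gene end, against 2 of 7 primitive endoderm, 0 of 6 fibroblast and 1 of 4 neural genes, while H3K27me3 lay at 3 of 10, 6 of 7, 5 of 6 and 4 of 4 of these genes. H3K4me3 separated them little, lying at 9 of 10, 5 of 7, 5 of 6 and 4 of 4.

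The transcription factor p53 is stabilised by DNA damage and other stress and binds a consensus of paired decamers near its targets. Cdkn1a (the p21 inhibitor of cyclin-dependent kinases), Btg2 (an antiproliferative cofactor of mRNA deadenylation), Sesn1 (an inhibitor of mTORC1 signalling), Phlda3 (an inhibitor of AKT) and Plk2 (a stress-induced Polo-like kinase) slow growth. Mdm2 (the ubiquitin ligase that degrades p53) and Ccng1 (cyclin G1, which acts with a phosphatase on Mdm2) feed back on p53, Trp53inp1 modulates p53 activity, and Zmat3 is an RNA-binding protein that controls splicing. Mdm2 is transcribed from a constitutive promoter and from an internal promoter that p53 drives. At such genes H3K4me3 marks active promoters, NELF holds RNA polymerase II paused shortly after the start, H3K27ac marks active elements and H3K27me3 is the mark of Polycomb repression.

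In mm10 the genes lie at chr17:29090979-29100722 (Cdkn1a), chr10:117688875-117710758 (Mdm2), chr11:40748552-40755309 (Ccng1), chr1:134074865-134079155 (Btg2), chr10:41810574-41908436 (Sesn1), chr4:11156441-11174379 (Trp53inp1), chr1:135766085-135769134 (Phlda3), chr3:32334792-32365665 (Zmat3) and chr13:110395044-110400844 (Plk2). The sequences before 4 start sites are shown because Mdm2 and Cdkn1a had the longest double knockout H3K4me3 domains of the 9 genes, and Plk2 had a wildtype H3K27me3 domain that was listed in neither single knockout. They are the 250 bases before a RefSeq start in GRCm38.p6, the assembly of mm10, 5′ to 3′ on the gene's strand. Capitals mark a p53 consensus decamer, CCAAT or GGGCGG on either strand. Cdkn1a has 2 RefSeq starts 2790 bp apart on the plus strand, with the first window at chr17:29090729-29090978 and the second at chr17:29093519-29093768. The Mdm2 window lies at chr10:117710759-117711008 (minus strand) and the Plk2 window at chr13:110394794-110395043 (plus strand).
Cdkn1a first start: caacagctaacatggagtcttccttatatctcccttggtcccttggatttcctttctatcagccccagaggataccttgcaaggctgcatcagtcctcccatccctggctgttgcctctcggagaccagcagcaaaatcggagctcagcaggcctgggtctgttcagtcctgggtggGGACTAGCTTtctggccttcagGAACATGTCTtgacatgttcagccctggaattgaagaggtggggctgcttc
Cdkn1a second start: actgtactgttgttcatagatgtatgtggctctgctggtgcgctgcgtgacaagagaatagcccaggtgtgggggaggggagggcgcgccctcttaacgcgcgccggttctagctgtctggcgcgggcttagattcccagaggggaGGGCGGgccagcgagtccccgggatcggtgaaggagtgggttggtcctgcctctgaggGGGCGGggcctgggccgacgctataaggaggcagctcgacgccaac
Mdm2 start: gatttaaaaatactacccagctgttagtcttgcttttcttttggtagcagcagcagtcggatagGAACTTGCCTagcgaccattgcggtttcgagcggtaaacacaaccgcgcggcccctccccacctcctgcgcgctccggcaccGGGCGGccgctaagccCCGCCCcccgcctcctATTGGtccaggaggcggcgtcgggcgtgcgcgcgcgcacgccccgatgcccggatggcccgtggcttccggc
Plk2 start: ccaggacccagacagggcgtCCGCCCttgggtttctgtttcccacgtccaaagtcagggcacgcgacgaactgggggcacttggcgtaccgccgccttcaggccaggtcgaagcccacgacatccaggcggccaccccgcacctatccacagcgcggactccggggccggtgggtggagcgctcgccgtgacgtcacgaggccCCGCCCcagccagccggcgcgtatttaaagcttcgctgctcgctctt
The first Cdkn1a window held 2 CG dinucleotides, fewer than most promoters (18.8% of windows had fewer still), while the second held 19, Mdm2 29 and Plk2 28, against a median of 6. The p53 consensus decamer occurred in the windows of 4 of the 9 starts known for the genes (Cdkn1a first, Mdm2, Ccng1 and the second Sesn1 start), against 7.13% of 32851 promoter windows. At the first Cdkn1a start a decamer began 51 bases before the start, with CATG, the core of the consensus, 48 and again 38 bases before it. TATAAA occurred in 0 of 9 windows (12.4% of all), CCAAT in 5 of 9 (33.8%), CATG in 1 of 9 (53.9%) and GGGCGG in 7 of 9 (32.7%). Such a match is no shown binding site, and a lack of one says only that these letters are not in the window. Promoter windows were used for 7 genes; Trp53inp1 and Zmat3 are described from the gene end that carries H3K4me3.

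H3K4me3 spread over long stretches of these genes in the double knockout. The domains touching the gene ends were at least 1.5-fold longer than in wildtype at 7 of the 8 genes that have a wildtype domain there, where 8.36% of all genes were. In the single knockouts this held for 2 of 8 genes each, Btg2 and Phlda3 in both, against 2.10% of genes in Zbtb11KO and 3.45% in Zfp131KO. No gene of the 8 was 1.5-fold narrower in any genotype, against 3.76% of all genes in the double knockout, 8.12% in Zbtb11KO and 10.2% in Zfp131KO. The median length ratio to wildtype of the 8 genes was 1.94 in the double knockout, 1.34 in Zbtb11KO and 1.07 in Zfp131KO, beside 1.07, 0.931 and 0.908 over all genes. Because each genotype has 1 pooled list, these ratios have no test.

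**Figure D1:**
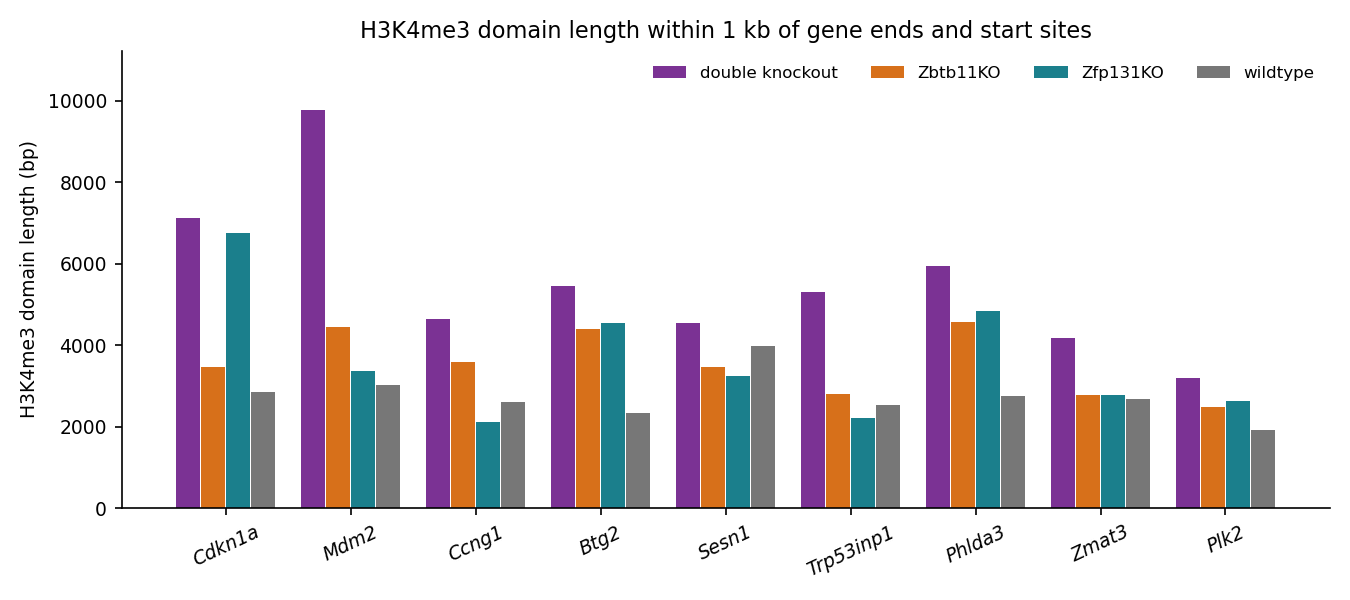
Total length in bp of the H3K4me3 domains that touch a window of 1 kb around the gene ends and RefSeq starts of the 9 genes, in the double knockout, Zbtb11KO, Zfp131KO and wildtype (1 pooled list each, so no error bars). Mdm2 reached 9762 bp in the double knockout against 3024 bp in wildtype, and Cdkn1a 7110 and 6749 bp in the double knockout and Zfp131KO against 2862 bp in wildtype, while Sesn1 changed little.

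Among the genes of arrest, Btg2 had 5460 bp of H3K4me3 in the double knockout, 4386 bp in Zbtb11KO and 4543 bp in Zfp131KO, against 2346 bp in wildtype. Its ratios to wildtype in the single knockouts, 1.87 and 1.94, were the highest of the 8. Plk2 had 3192, 2478 and 2641 bp in these knockouts, against 1918 bp in wildtype, and Phlda3 had 5940, 4562 and 4832 bp, against 2752 bp. The Phlda3 lengths include the far end of this gene of 3050 bp: in the double knockout a single domain ran from 704 bp before the start to 5235 bp after it and so covered the whole gene. Trp53inp1 (5316 bp in the double knockout against 2543 bp in wildtype), Zmat3 (4166 against 2685 bp) and Ccng1 (4639 against 2605 bp) were longer in the double knockout, whereas their single knockouts lay between 2105 bp (Ccng1 in Zfp131KO) and 3594 bp (Ccng1 in Zbtb11KO). Sesn1 was the exception, at 3114, 2321 and 2299 bp in the double knockout, Zbtb11KO and Zfp131KO against 2665 bp in wildtype. An end of Cep57l1 and an end of Armc2 lie within 1 kb of the ends of Sesn1, so its windows include regions of those genes. The marked end of Zmat3 overlaps the lncRNA gene 4930429B21Rik by 177 bp, whose signal cannot be told apart from that of Zmat3.

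Read counts in the domains were also higher. The double knockout had between 6094 reads (Sesn1) and 21752 reads (Mdm2) at the 8 genes, against 2826 (Plk2) to 6456 reads (Mdm2) in wildtype. All 8 were at least 1.5-fold higher, but so were 65.6% of all genes, and the median ratio over all genes was 1.65. Scaled to the reads in all domains of each list, 7 of the 8 genes were at least 1.5-fold higher (Sesn1 at 1.03), where 7.84% of all genes were, with a median ratio of 1.81 beside 0.973 over all genes. In Zfp131KO 3 of 8 were at least 1.5-fold higher (5.38% of all genes), namely Btg2 at 2.01, Plk2 at 1.69 and Phlda3 at 1.64, and in Zbtb11KO 0 of 8 were (4.88%), with Phlda3 highest at 1.44. None of the 8 was 1.5-fold lower by reads in any genotype, against 4.15% of all genes in the double knockout, 35.7% in Zbtb11KO and 13.1% in Zfp131KO. After scaling, 3 were higher in Zbtb11KO and 4 in Zfp131KO (11.8% and 7.54% of all genes), and again none was lower (14.1% in the double knockout, 14.2% in Zbtb11KO and 9.88% in Zfp131KO).

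At Cdkn1a the gene-end window held no wildtype H3K4me3 domain, because the wildtype domain of 2862 bp and 5166 reads lay around the second start, from 2257 to 5118 bp after the first. In the double knockout a single domain of 6868 bp with 19095 reads ran from 751 bp before the first start to 6116 bp after it. In Zfp131KO a domain of 6749 bp with 9618 reads ran from 477 bp before to 6271 bp after. Each was the 15th strongest by reads in its list, of 59542 domains in the double knockout and 44739 in Zfp131KO. In Zbtb11KO the domain at the second start had 2763 bp and 5982 reads, and 3 short domains of 144, 146 and 310 bp, with 24 to 77 reads, lay near the first start. The CG-poor window with the p53 decamer lay inside these domains in the double knockout and Zfp131KO, was touched by a short one in Zbtb11KO and lay outside any in wildtype. The joined Cdkn1a region was higher in Zfp131KO by 1.18 on the log2 scale (adjusted p 1.3e-15, SE 0.14; the authors' deposited table). Its bounds are those of the domain listed in Zfp131KO, so this p-value is not independent of that listing.

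At Mdm2 the double knockout domain of 9762 bp ran from 1844 bp before the start to 7917 bp into the gene and was the 7th strongest of its list by reads. The Zbtb11KO domain of 4435 bp reached 3219 bp into the gene, the Zfp131KO domain of 3370 bp reached 2007 bp and the wildtype domain of 3024 bp reached 2081 bp. Further inside, Zfp131KO had another domain of 1692 bp with 762 reads from 2585 to 4276 bp inside the gene, where wildtype listed 1 domain of 47 bp with 13 reads. In the authors' deposited table the region at the Mdm2 start was not called in Zfp131KO (log2 fold change -0.13, SE 0.18, adjusted p 0.619), while the stretch from 2585 to 4276 bp inside was higher by 2.30 (SE 0.45, adjusted p 8.51e-06). The bounds of that stretch are those of the domain listed in Zfp131KO, so its p-value is not independent of that listing. The table of Zbtb11KO gave the stretch from 3333 to 4196 bp inside Mdm2 as higher by 2.09 (SE 0.53, adjusted p 0.00035), again from the authors' deposited table. There the region at the Mdm2 start was higher as well, by 1.76 (SE 0.08, adjusted p 4.95e-105), so that rise was not confined to the inner stretch. The listed reads did not follow it, with 6301 in Zbtb11KO against 6456 in wildtype. The region at the start has the length of the domain listed in Zbtb11KO, so its p-value is not independent of that listing.

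**Figure D2:**
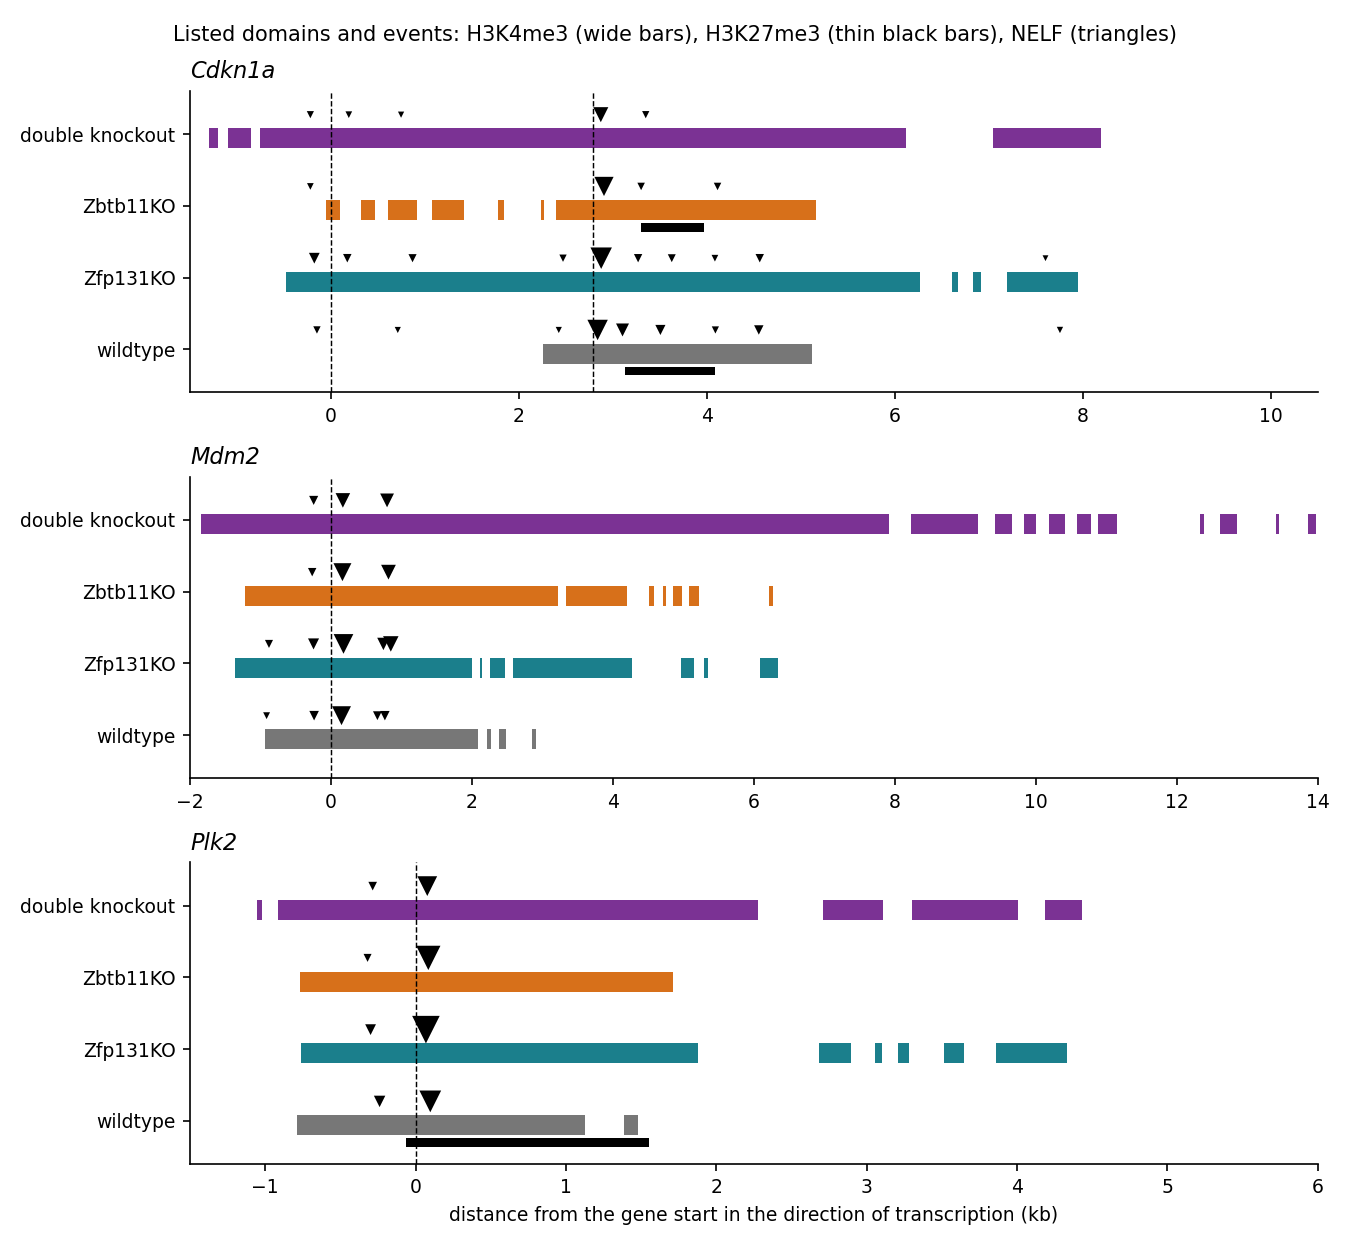
Listed H3K4me3 domains (wide bars), H3K27me3 domains (thin black bars; not measured in the double knockout) and NELF events (triangles, whose area grows with reads per 10 M) along Cdkn1a, Mdm2 and Plk2 in each genotype, against the distance from the gene start in kb; dashed lines mark the starts. H3K4me3 covered both Cdkn1a starts in the double knockout and Zfp131KO but the second alone in wildtype, and the wildtype H3K27me3 domain at Plk2 was not listed in either single knockout.

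The tables give the test of H3K4me3 for the single knockouts. In Zfp131KO 5 of 9 genes were higher at an adjusted p under 0.05 (DESeq2, by the authors), against 33.5% of all genes, and 0 of 9 lower, against 4.18%. The 5 were Btg2 (log2 fold change 1.29, SE 0.19), Cdkn1a (1.18, SE 0.14), Plk2 (1.09, SE 0.11), Phlda3 (1.02, SE 0.11) and Zmat3 (0.88, SE 0.10) in the authors' deposited table. The regions at Btg2, Cdkn1a and Plk2 are as long as the domains listed in Zfp131KO. The 3 table regions at Phlda3 together have the length of its 3 domains listed there (4832 bp). The calls at these genes are therefore not independent of that listing. At most 4.97% of all genes had a higher value than any of them, and the median was 0.88 over the 9 genes and 0.24 over all genes. Of the other 4, Trp53inp1 had 0.44 (SE 0.18, adjusted p 0.0555), Ccng1 0.23 (SE 0.17, adjusted p 0.328), Sesn1 0.09 (SE 0.14, adjusted p 0.689) and Mdm2 the value above, in the authors' deposited table.

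In Zbtb11KO 7 of 9 genes were called higher for H3K4me3, where 42.9% of all genes were, and 0 lower, where 24.8% were. Among those called, the values in the authors' deposited table were largest at Phlda3 (log2 fold change 2.31, SE 0.08), Zmat3 (2.12, SE 0.09) and Mdm2 (1.76, SE 0.08), and smallest at Btg2 (0.37, SE 0.13, adjusted p 0.0167). The regions at Mdm2, Btg2 and Trp53inp1 are as long as the domains listed in Zbtb11KO. The table regions at Phlda3 together have the length of its domains listed there (4562 bp). The calls at these genes are therefore not independent of that listing. This table does not follow the listed reads: Mdm2 had 6301 reads in Zbtb11KO against 6456 in wildtype, although the authors' deposited table puts it 1.76 higher. Of all genes, 10.6% had a higher value than Phlda3 and 47.4% a higher one than Ccng1, the lowest of the 9 (0.27, SE 0.13, adjusted p 0.0894; the authors' deposited table). At the first Cdkn1a start no region was called (2.04, SE 0.92, adjusted p 0.0713 for the strongest), while the second start had 1.87 (SE 0.09, adjusted p of 1.01e-96), per the authors' deposited table.

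**Figure D3:**
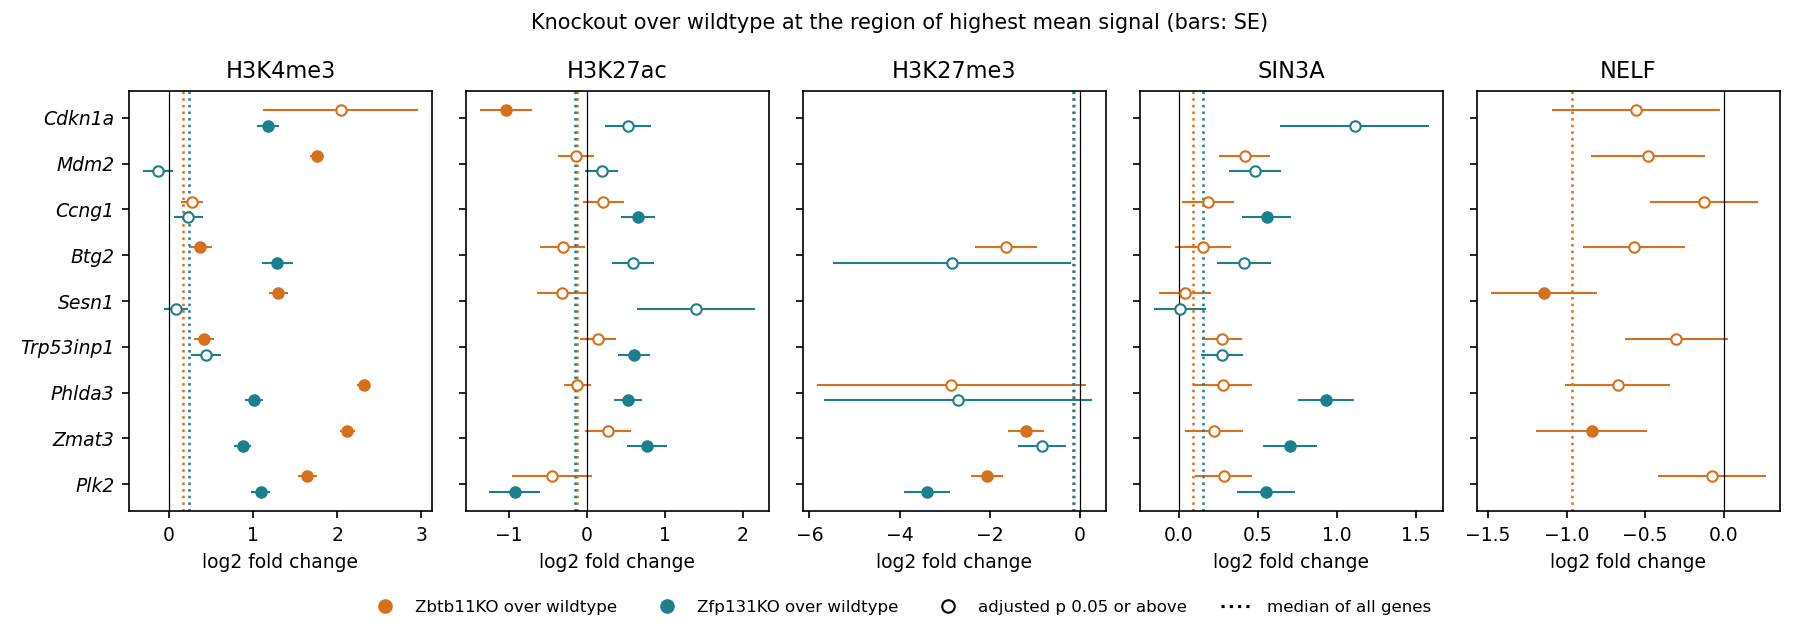
Log2 fold change of each knockout over wildtype (x axes, with SE) at the region of highest mean signal within 1 kb of the gene ends of the 9 genes, from the authors' deposited tables of H3K4me3, H3K27ac, H3K27me3, SIN3A and NELF (NELF for Zbtb11KO alone). Filled points have an adjusted p under 0.05, and dotted lines give the median of all genes: in Zfp131KO 5 of 9 genes were higher for H3K4me3, 4 for H3K27ac and 4 for SIN3A.

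NELF was still listed at all of these genes in every knockout. They made up 9 of 9, whereas of 12988 genes with a wildtype event 48.9% were still listed in the double knockout, 72.1% in Zbtb11KO and 73.8% in Zfp131KO. The 9 genes started strong, with a median of 1591.3 NELF reads in wildtype against 561.55 over all genes listed. A strong event is more likely to stay listed, and genes of equal wildtype strength were not compared. Scaled to 10 M reads of the list, NELF was at least 1.5-fold lower at 6 of 9 genes in the double knockout, at 4 in Zbtb11KO and at 2 in Zfp131KO, against 98.2%, 75.9% and 60.6% of genes listed in both. It was at least 1.5-fold higher at 0, 0 and 2 of 9 (Cdkn1a and Mdm2 in Zfp131KO), against 0.126%, 0.246% and 0.720%. The median ratio to wildtype was 0.517 in the double knockout, 0.889 in Zbtb11KO and 1.07 in Zfp131KO, beside 0.295, 0.532 and 0.601 over all genes. The split depends on the scaling: per read in events, which make up a smaller share of the knockout libraries, 7, 6 and 7 of 9 genes were at least 1.5-fold higher, against 59.7%, 33.2% and 30.7% of genes, and 0 lower, against 4.66%, 9.52% and 11.4%.

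**Figure D4:**
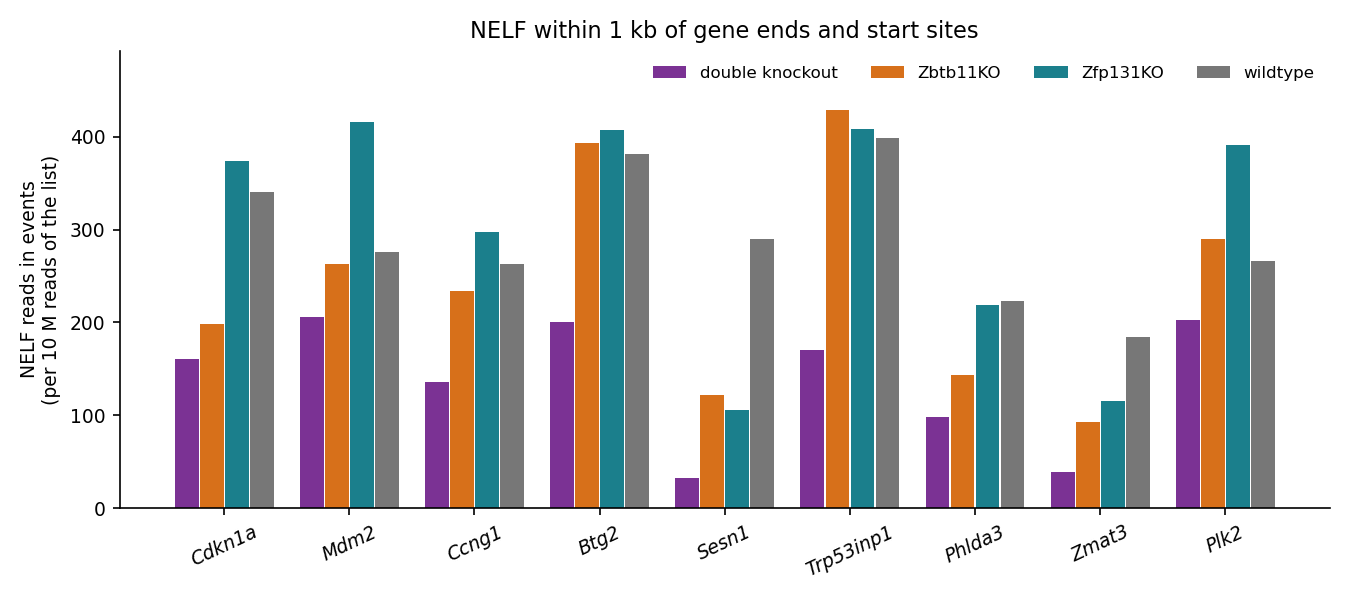
NELF reads in events within 1 kb of the gene ends and RefSeq starts of the 9 genes, per 10 M reads of the list, in the double knockout, Zbtb11KO, Zfp131KO and wildtype (1 pooled list each, so no error bars). Trp53inp1 and Btg2 stayed near their wildtype level in both single knockouts, Mdm2, Plk2 and Cdkn1a were highest in Zfp131KO, and Sesn1 and Zmat3 were highest in wildtype.

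Plk2 had 203 NELF reads per 10 M in the double knockout, 289 in Zbtb11KO and 392 in Zfp131KO, against 266 in wildtype. Its event at the start, with 2118 reads in Zfp131KO and 1284 reads in wildtype, held 344 and 212 reads per 10 M. Mdm2 had 206, 264 and 416 reads per 10 M in the double knockout, Zbtb11KO and Zfp131KO, against 276 in wildtype. Btg2 (200, 393 and 407, against 381 in wildtype) and Trp53inp1 (171, 429 and 408, against 398) differed little from wildtype in the single knockouts. Sesn1 and Zmat3 were at least 1.5-fold lower than wildtype in each knockout: Sesn1 had 32.0, 80.6 and 105 reads per 10 M in the double knockout, Zbtb11KO and Zfp131KO, against 171 in wildtype, and Zmat3 had 39.4, 93.0 and 115, against 184. Ccng1 had 136, 234 and 297, against 263, and Phlda3 had 98.4, 143 and 219, against 223.

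Cdkn1a had 44.3 NELF reads per 10 M in its gene-end windows in the double knockout, 14.5 in Zbtb11KO and 98.9 in Zfp131KO, against 30.3 in wildtype. Most of its NELF lay at the second start, where the main event had 98.4 reads per 10 M in the double knockout, 164 in Zbtb11KO and 207 in Zfp131KO, against 186 in wildtype. With the second start included, Cdkn1a had 161, 199 and 374 reads per 10 M in the knockouts, against 341 in wildtype. Near the first start Zfp131KO had an event 177 bp before it with 291 reads, where the wildtype event 149 bp before it had 115 reads.

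Within Mdm2 a larger share of the NELF reads lay inside the gene in the knockouts. Events 500 to 1000 bp inside held 39.8% of the NELF reads within 1 kb of the start in the double knockout (Wilson 95% interval 37.3 to 42.3, 1475 reads), 35.8% in Zbtb11KO (33.3 to 38.4, 1346 reads) and 40.7% in Zfp131KO (38.8 to 42.6, 2560 reads). The share was 23.6% in wildtype (21.6 to 25.7, 1668 reads), and the intervals cover counting error only. Among genes with at least 200 reads in both lists, a shift at least as large was seen at 3.33% of 3571 genes in the double knockout, 3.95% of 5109 in Zbtb11KO and 3.15% of 5873 in Zfp131KO. The median difference over these genes was 0. At Cdkn1a, with 183 wildtype reads, the share was 26.8%, 0% and 24.8% in these knockouts, against 37.1% in wildtype. Btg2 had 7.32%, 5.15% and 7.12%, against 4.12% in wildtype. In Zfp131KO Phlda3 had 11.7% and Ccng1 7.09%, against 0% in the other genotypes. Sesn1 and Plk2 had 0% in every genotype. The inner site of Mdm2 was examined after its values were seen. In the authors' deposited table of NELF in Zbtb11KO the inner region had a log2 fold change of 0.51 (SE 0.36, adjusted p 0.194) and the region at the start -0.48 (SE 0.36, adjusted p 0.229), and neither was called.

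The NELF tables labelled for Zbtb11 and for Zfp131 hold the same values. Region edges lay 250 bp from 100% of the NELF events listed in Zbtb11KO and 100% of those in wildtype, against 4.1% of those in Zfp131KO, so the table is taken as that of Zbtb11KO, although the libraries counted in it cannot be checked. In it, 2 of 9 genes were lower in Zbtb11KO, against 55.3% of all genes, and 0 of 9 higher, against 0.0901%. These were Sesn1 (log2 fold change -1.14, SE 0.34, adjusted p 0.00477) and Zmat3 (-0.84, SE 0.36, adjusted p 0.0404), per the authors' deposited table. The median was -0.56 over the 9 genes and -0.97 over all genes, and 8 of 9 lay above the median of all genes. Plk2 (-0.07, SE 0.34, adjusted p 0.843) and Ccng1 (-0.12, SE 0.34, adjusted p 0.736) were nearest to 0 in the authors' deposited table, with 2.59% and 3.00% of genes above them. These counts and medians take Cdkn1a from its first start, with a value of -0.56 and a mean signal of 5344. The second Cdkn1a start, with a mean signal of 86417.5, was lower in Zbtb11KO, with a log2 fold change of -1.13 (SE 0.32, adjusted p of 0.00364; the authors' deposited table). That value lies below the median of all genes.

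H3K27ac was higher in Zfp131KO at 4 of 9 genes, against 4.56% of all genes, and lower at 1, against 11.1%. The 4 were Zmat3 (log2 fold change 0.77, SE 0.26), Ccng1 (0.65, SE 0.22), Trp53inp1 (0.61, SE 0.21) and Phlda3 (0.53, SE 0.18), with adjusted p between 0.0125 and 0.0187 in the authors' deposited table. All 4 regions are as long as the domain listed in Zfp131KO, so the calls are not independent of that listing. The fall was at a region of 97 bp before the Plk2 start (-0.93, SE 0.33, adjusted p 0.0207), while the region of 838 bp over the Plk2 start was higher by 1.16 (SE 0.35, adjusted p 0.00491), per the authors' deposited table. Listed Plk2 domains were longest in Zfp131KO, where 1 of 838 bp and 251 reads covered the start, against 4 wildtype domains of 55 to 209 bp. The called region of 838 bp has the length of that domain, so the 2 observations are not independent. In Zbtb11KO 0 of 9 were higher, against 3.70% of all genes, and 1 of 9 was lower, against 9.94%. This was the region at the first Cdkn1a start (-1.04, SE 0.34, adjusted p 0.0118; the authors' deposited table), with 54 reads over 299 bp in Zbtb11KO, against 427 reads over 1708 bp in wildtype.

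H3K27me3 was listed at the ends of 4 of 9 genes in wildtype, against 24.6% of all genes, of which Plk2 and Zmat3 had more than 24 reads. The Plk2 domain of 1618 bp and 563 reads in wildtype was not listed in Zbtb11KO or Zfp131KO. In the authors' deposited table it was lower, with log2 fold changes of -2.05 in Zbtb11KO (SE 0.35, adjusted p 7.03e-07) and -3.39 in Zfp131KO (SE 0.52, adjusted p 1.13e-08), where 99.3% and 99.95% of genes had a higher value. The Zmat3 ends had 12 reads in either knockout, against 248 in wildtype, and the table regions within 1 kb of the Zmat3 ends had negative values. The one of 640 bp was called lower in Zbtb11KO (-1.20, SE 0.39, adjusted p 0.0219) and not in Zfp131KO (-0.84, SE 0.53, adjusted p 0.265), per the authors' deposited tables. The one of 192 bp was called lower in Zfp131KO (-1.36, SE 0.49, adjusted p 0.0361) and not in Zbtb11KO (-1.14, SE 0.59, adjusted p 0.19), again in the authors' deposited tables; the difference between knockouts was not tested. By the region of highest mean signal, 2 of the 4 genes with a region were lower in Zbtb11KO and 1 of 4 in Zfp131KO, against 3.51% and 6.59% of genes with a region, and 0 were higher, against 6.46% and 9.95%. At the second Cdkn1a start the wildtype domain of 956 bp and 396 reads stood against 666 bp and 164 reads in Zbtb11KO and none in Zfp131KO. That region was lower, with log2 fold changes of -0.998 in Zbtb11KO (SE 0.34, adjusted p 0.0305) and -2.43 in Zfp131KO (SE 0.41, adjusted p 3.29e-07), per the authors' deposited table. It and the Plk2 region are as long as the wildtype domains. The Zmat3 regions of 640 and 192 bp together have the length of the wildtype domains there (832 bp). The same holds for the table regions at Phlda3 (71 bp). The calls at these 4 genes are therefore not independent of the wildtype listing. The domains at Phlda3 and Btg2 were of 46 bp or less with 12 reads each; the one 845 bp inside Phlda3 was called lower in Zbtb11KO (-2.38, SE 0.67) and Zfp131KO (-2.68, SE 0.54) in the authors' deposited table.

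SIN3A, a scaffold of histone deacetylase complexes, was higher in Zfp131KO at 4 of 9 genes, against 5.62% of all genes, and lower at 0, against 1.57%. The event list labelled SIN3A in Zfp131KO is identical to that of CHD4. Region edges of the SIN3A table lay 250 bp from 81.5% of wildtype SIN3A events and from 49.4% of the events of that shared list, those at Plk2 and Zmat3 included, against 0.7% of wildtype CHD4 events. The shared list has 8.8% of its reads in events. The CHD4 lists of Zbtb11KO and wildtype have 6.2% and 6.8%, and the SIN3A lists of Zbtb11KO and wildtype 26.1% and 33.3%. Which target the reads of the shared list belong to was not tested, and the libraries counted in the SIN3A table cannot be checked. The 4 genes were Phlda3 (log2 fold change 0.93, SE 0.18, adjusted p 4.06e-05), Zmat3 (0.70, SE 0.17, adjusted p 0.00249), Ccng1 (0.56, SE 0.16, adjusted p 0.0141) and Plk2 (0.55, SE 0.18, adjusted p 0.0453), per the authors' deposited table. In Zbtb11KO 0 of the 8 genes with a SIN3A region were called higher or lower, against 5.60% and 2.33% of all genes, with values from 0.04 (Sesn1) to 0.42 (Mdm2) in the authors' deposited table. Cdkn1a had no SIN3A region at its gene ends in that table. Along the whole gene it had 19, of which 4 were called lower and 0 higher, where 4063 of all 125643 regions were lower. The 4 regions overlap one another, from 3439 to 4352 bp after the first Cdkn1a start. They may be a single site, so the region counts are not counts of separate sites. CHD4, the remodeller of the NuRD complex, had a table region at 2 of the genes in Zbtb11KO and 6 in Zfp131KO, where 3144 and 3909 of 21887 genes had one. None of these regions at the 9 genes was called higher (2.10% and 1.10% of all genes) or lower (0.636% and 6.09%) in the authors' deposited tables. Outside these windows, a CHD4 region from 19432 to 19932 bp inside Sesn1 was higher in Zbtb11KO (log2 fold change 2.73, SE 0.45, adjusted p 6.5e-07; the authors' deposited table). In Zfp131KO a region from 19363 to 19863 bp inside Sesn1 was higher (2.16, SE 0.40, adjusted p 6.94e-06; the authors' deposited table). Along Sesn1, 9 of 12 H3K27ac regions were called higher in Zbtb11KO and 7 of 13 in Zfp131KO, with 0 and 1 lower. The CHD4 lists hold 4804 events in Zbtb11KO and 12504 in Zfp131KO, so the number of genes with a region is no measure of change.

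ZBTB11 events were listed at 5 of 9 genes in the HA profiles, against 35.9% of all genes and 55.1% of those with wildtype H3K4me3 at an end. The strongest event lay 694 bp inside Mdm2, with 275 reads, and further events lay at Zmat3 (156 and 76.8 reads), Trp53inp1 (88.2 and 67.2), Phlda3 (68.1 and 66.8) and Plk2 (57.2). The Mdm2 event was thus close to the inner NELF events, which lay 659 to 849 bp inside across the genotypes. ZFP131 events were listed at 2 of 9, against 10.2% of all genes. These were Phlda3, with 47.7 reads, and Sesn1, with 214 and 117 reads at 888 and 658 bp before the start, near the end of Cep57l1. Cdkn1a, Btg2 and Ccng1 had no event of either factor within the windows.

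In wildtype cells most of the profiled factors were listed at these genes. NELF, polymerase II phosphorylated at serine 5 and H3K27ac were listed at 9 of 9 (59.3%, 57.4% and 46.2% of all genes). SETD1A, a methyltransferase subunit for H3K4, and SIN3A were listed at 8 of 9 (43.7% and 60.5%), and H3K4me3 likewise at 8 (64.2%), Cdkn1a being the missing one. CHD4 was listed at 1 of 9, Phlda3 (11.3%). With the second start counted, Cdkn1a had events of SETD1A and SIN3A as well. Among genes with wildtype H3K4me3 at an end the shares were higher, at 89.7% for NELF, 82.4% for polymerase II, 70.2% for H3K27ac, 67.5% for SETD1A and 91.2% for SIN3A. Polymerase II reads at the 9 genes had a median of 2154, against 476.5 over all genes listed.

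Other genes of the p53 pathway were compared in the same tables. H3K4me3 in Zfp131KO was higher at 11 of 14 genes of cell death and 7 of 17 genes of repair and metabolism, with 0 and 1 lower, and with medians of 0.67 and 0.26 beside 0.24 over all genes, of which 33.5% were higher. The lowest adjusted p in the authors' deposited table were at Bbc3 (0.87, SE 0.10), Perp (1.18, SE 0.17) and Tnfrsf10b (0.92, SE 0.15) among the death genes, and at Dcxr (1.47, SE 0.11), Ddit4l (1.38, SE 0.11) and Tap1 (1.61, SE 0.25) among the second group. Among p53 and its regulators 5 of 14 were higher and 0 lower (median 0.13), among other cell cycle inhibitors 2 of 7 and 0 (median 0.23), and among the nearest relatives of the 9 genes 6 of 10 and 1 (median 0.34). For NELF in Zbtb11KO, 3 of 13 death genes, 12 of 17 repair and metabolism genes, 11 of 14 regulators, 7 of 7 other inhibitors and 9 of 10 relatives were lower, against 55.3% of all genes, and 0 of these were higher. Relatives such as Ccng2 (-1.29, SE 0.33, adjusted p 0.00142) and Btg3 (-1.24, SE 0.31, adjusted p 0.000893) were lower, while Ccng1 and Btg2 were not called, in the authors' deposited table; the difference between relatives was not tested. For H3K27ac in Zfp131KO, 3 of 13 death genes, 2 of 17 repair and metabolism genes and 1 of 13 regulators were higher, and 0 of 6 inhibitors and 0 of 9 relatives, against 4.56% of all genes. H3K4me3 in Zbtb11KO went both ways, with 7 higher and 2 lower of 14 death genes, 4 and 6 of 17 repair and metabolism genes, 6 and 6 of 14 regulators, 4 and 3 of 7 inhibitors and 7 and 2 of 10 relatives, against 42.9% and 24.8% of all genes.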

How the data were processed

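The submitters' processing notes name Bowtie 1.0.1, bedtools, DESeq2 1.28.1 and the build mm10. For NELF, CHD4, SIN3A, SETD1A and HA, MultiGPS events were called on each group, with 45.3 M control reads, per the file headers. The deposited event lists give signal as reads assigned to the event, the log2 fold against control and a score (log2 of p). DomainFinder of SEED made the histone and polymerase domains, per the file headers, and each deposited domain has its count of reads and its p-value. The authors' deposited DESeq2 tables give per region the mean signal, the log2 fold change (positive where the knockout is higher), its standard error, a Wald score and p-values raw and adjusted (Benjamini-Hochberg).

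No counts per region and library were in these files, so the count model first planned was replaced by the authors' own test. For each gene the table region of highest mean signal within 1 kb of a gene end (RefSeq, GRCm38.p6) was used, and called at an adjusted p under 0.05. A histone region can have the bounds of a domain listed in 1 genotype. A call in favour of that genotype is then not independent of the listing. Lists were compared as ratios to wildtype with a threshold of 1.5-fold, and NELF reads were scaled to 10 M reads of the header. All 9 genes are named; other genes of the pathway are named only from the 3 lowest adjusted p of their list, and neighbours by position. The 9 genes and the gene lists were chosen with earlier results of these data known. The NELF table labelled Zfp131, identical to the one labelled Zbtb11, and the SIN3A list of Zfp131KO, identical to the CHD4 list, were not used, so NELF in Zfp131KO rests on lists alone. Computation used Python 3.11.15 with pandas 2.3.3, tested on simulated data. Alternatives changed the window, the region, the thresholds and the scaling.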

Additional observations from a re-analysis of the deposited data

How the results depend on the processing

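No paired analysis was possible because the files hold no counts per region and library; for the same reason no replicate was left out and no other count tool was run. Over single genes, 631 recomputed values kept direction and call, 26 lost the call, 13 gained it and 30 changed sign; 292 recomputed counts stayed within 1.5 times and 38 did not. The GGGCGG motif, start sites as extra windows, the widest region and centring on all genes were chosen after seeing the data.

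Called counts moved as follows. H3K27ac lower in Zbtb11KO was 0 at 2 kb, at adjusted p under 0.01 and with start sites included; in Zfp131KO, at p under 0.01, higher and lower were both 0, and lower was 0 with the nearest region, the widest region or centring on all genes. H3K27me3 lower in Zbtb11KO was 1 at 500 bp, 2 kb, the nearest region and p under 0.01; in Zfp131KO it was 2 at 500 bp, with the nearest or widest region and with start sites. NELF lower in Zbtb11KO was 1 at p under 0.01 and 0 when centred on all regions or all genes. SIN3A higher in Zfp131KO was 2 at p under 0.01 and when centred on all genes. NELF reads at least 1.5-fold higher in the double knockout were 1 at 500 bp or unscaled; in Zfp131KO higher was 1 at 500 bp, 2 kb and with start sites, and lower 1 at 2 kb. Scaled by reads in events, higher was 7, 6 and 7 and lower 0 in the double knockout, Zbtb11KO and Zfp131KO. H3K4me3 width by the longest domain was 1 wider in each single knockout. H3K4me3 reads scaled by all domains were 3 higher in Zbtb11KO. CHD4 was at 2 genes at 2 kb and ZFP131 at 1 at 500 bp.

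Signs reversed as follows. NELF in Zbtb11KO, centred on all regions (median -1.04) and on all genes, was 0.47 and 0.39 at Btg2, 0.91 and 0.84 at Ccng1, 0.48 and 0.41 at Cdkn1a, 0.56 and 0.48 at Mdm2, 0.36 and 0.29 at Phlda3, 0.96 and 0.89 at Plk2, 0.74 and 0.67 at Trp53inp1, and 0.20 and 0.13 at Zmat3, none called. H3K27ac in Zbtb11KO was -0.092 at Zmat3 (2 kb), 0.012 and 0.0030 at Btg2 and 0.17 at Plk2 (nearest and widest region); at Plk2 in Zfp131KO it was 1.16 (both). H3K4me3 in Zfp131KO, centred on all genes, was -0.00570 at Ccng1 and -0.15 at Sesn1. SIN3A at Sesn1 was -0.0534 (centred on all genes) and -0.40 (widest) in Zbtb11KO, and -0.0146 (all regions), -0.14 (all genes) and -0.28 (widest) in Zfp131KO. The cause was not tested.

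The single pooled list per genotype limits every comparison with the double knockout, and the H3K4me3 lists give no library totals.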
